A study of Homo sapiens with 7 samples.

Results

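The t(8;21) translocation fuses AML1 (RUNX1) to ETO, and the leukemias that carry it have a recognizable surface. Their blasts usually carry the progenitor markers CD34, CD33, CD38 and PROM1 (CD133), and often express genes that belong to other lineages, such as the B-cell genes PAX5 and CD79A and the neural genes NCAM1 (CD56) and POU4F1. These 8 genes and UBASH3B, a signaling gene that has been studied as a target of the fusion, are described here, 9 of the 20136 protein-coding genes examined. A summit, the base at the center of a called peak, was assigned to a gene when it lay in the gene body or within 5 kb of either end, and within 50 kb as a wider view. The members were set in 3 classes, with CD34, CD33, CD38 and PROM1 as progenitor markers, PAX5, CD79A, NCAM1 and POU4F1 as genes expressed out of place, and UBASH3B on its own.

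AML1 is a transcription factor of the Runx family that binds DNA through its Runt domain, and the fusion keeps that domain. ETO brings in co-repressors, among them N-CoR, a scaffold for histone deacetylases, whereas p300 is a histone acetyltransferase and co-activator. Trimethylation of histone H3 at lysine 4 (H3K4me3) marks the start of genes that are active or poised for transcription.

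All libraries came from Kasumi-1, an established t(8;21) myeloblast line from peripheral blood, from log-phase cells fixed in 1% formaldehyde for 10 min. The antibodies were against AML1, ETO (for AML1-ETO), N-CoR, p300 and H3K4me3, and according to the study's methods the AML1 antibody binds the part of AML1 that the fusion has lost. A single line was used and every library carries the fusion, so no state without AML1-ETO is available for comparison. The 2 biological replicates of each antibody were pooled before peaks were called, which leaves 1 list for each and no spread between replicates, and for this reason no test was made between lists or between genes. The lists hold 18087 summits from AML1-ETO, 11692 from AML1, 10004 from N-CoR, 11020 from p300 and 19632 from H3K4me3. They give no read count or height, so the reads behind a summit are unknown. By the study's overview of its libraries, total reads differed between the antibodies and were highest for N-CoR, and a gene without a summit is one where no peak passed the threshold.

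The label of the line was checked with H3K4me3 at starts. A summit lay within 1 kb of a start at 4 of 6 myeloblast genes, namely MPO, AZU1, ELANE and PRTN3, but not at CTSG or LYZ, a share near the 62.4% of all protein-coding genes, so that this count by itself does not mark the line as myeloid. The same held for 1 of 5 erythroid genes (EPOR) and 1 of 6 T-cell genes (CD8A). Expression was not analysed here.

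The sequences under the summits that the results turn on are printed first. Each is the 100-bp window of an AML1-ETO summit, on the plus strand of hg19, with the number of its peak in the list. Capitals mark the Runx consensus TGTGGT or the PU.1 consensus GAGGAA, which on the other strand read ACCACA and TTCCTC. The windows of CD34, CD33 and CD38 come from summits at or near a start, at chr1:208063808-208063886 (cut to 79 bases to leave out untranslated sequence), chr19:51729451-51729550 and chr4:15780683-15780782, and that of PROM1 from the intronic summit at chr4:16033635-16033734 where AML1 and N-CoR also had summits.
CD34 peak 502: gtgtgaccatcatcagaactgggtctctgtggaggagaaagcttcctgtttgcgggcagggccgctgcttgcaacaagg
CD33 peak 5158: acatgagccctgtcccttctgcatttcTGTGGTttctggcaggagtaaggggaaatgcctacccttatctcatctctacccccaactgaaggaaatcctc
CD38 peak 889: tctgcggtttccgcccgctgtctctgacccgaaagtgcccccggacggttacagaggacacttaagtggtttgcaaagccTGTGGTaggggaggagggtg
PROM1 peak 8320: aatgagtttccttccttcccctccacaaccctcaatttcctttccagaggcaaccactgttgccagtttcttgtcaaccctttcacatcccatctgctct

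The genes expressed out of place are shown with the summit nearest to the start of CD79A, at chr19:42381780-42381879, the only summits within 5 kb of PAX5 (chr9:36911794-36911893) and NCAM1 (chr11:112840223-112840322), and the only one of POU4F1 (chr13:79176723-79176822). The windows of PAX5 and NCAM1 hold a PU.1 and a Runx match, and the other 2 hold neither.
PAX5 peak 15994: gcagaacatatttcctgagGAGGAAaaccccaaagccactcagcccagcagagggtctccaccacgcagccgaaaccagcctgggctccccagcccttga
CD79A peak 15685: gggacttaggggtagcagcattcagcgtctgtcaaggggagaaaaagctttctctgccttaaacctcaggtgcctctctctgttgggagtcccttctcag
NCAM1 peak 4884: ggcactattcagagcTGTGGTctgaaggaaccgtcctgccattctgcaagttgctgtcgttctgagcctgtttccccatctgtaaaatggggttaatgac
POU4F1 peak 16182: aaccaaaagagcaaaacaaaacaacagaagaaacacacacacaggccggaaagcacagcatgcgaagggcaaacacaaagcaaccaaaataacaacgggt

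For UBASH3B, the first window (chr11:122614794-122614893) is where the windows of all 4 proteins overlapped, the second (chr11:122588188-122588287) has the lowest peak number of the gene, and the last (chr11:122650018-122650117) lies at an internal start. The windows of PROM1, PAX5 and NCAM1 and peak 376 of UBASH3B were picked after their values were seen, so that each member and the lowest-numbered peak are shown.
UBASH3B peak 3203: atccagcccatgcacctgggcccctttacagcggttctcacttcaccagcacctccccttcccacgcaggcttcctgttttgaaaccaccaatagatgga
UBASH3B peak 376: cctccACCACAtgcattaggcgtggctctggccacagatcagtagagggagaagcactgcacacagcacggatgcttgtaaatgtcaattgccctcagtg
UBASH3B peak 10050: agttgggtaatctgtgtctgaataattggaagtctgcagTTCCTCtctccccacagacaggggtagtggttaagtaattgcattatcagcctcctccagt

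Of the 9 members, only CD33 had an AML1-ETO summit in its promoter, taken as the 250 bases before and 50 after the canonical start, against 2122 protein-coding genes (10.5%). The promoter of CD33 is printed at chr19:51728086-51728349, 264 bases of GRCh37 on the plus strand that end after 30 untranslated bases, and holds 2 PU.1 matches on the minus strand and no Runx match.
CD33 promoter: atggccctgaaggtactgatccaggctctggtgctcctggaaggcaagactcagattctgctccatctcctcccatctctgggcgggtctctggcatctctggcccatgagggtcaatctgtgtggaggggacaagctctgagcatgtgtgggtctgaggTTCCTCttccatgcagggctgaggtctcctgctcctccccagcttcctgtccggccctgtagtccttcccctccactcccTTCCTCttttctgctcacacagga

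Each of the 9 members had at least 1 AML1-ETO summit within 5 kb, 28 summits in all, where 41.4% of protein-coding genes had 1 or more. Per length, the members held 2.74 AML1-ETO summits in 100 kb of window, beside 1.04 over all protein-coding genes. The progenitor markers held 11 summits (3.85 per 100 kb), the genes expressed out of place 7 (1.23 per 100 kb) and UBASH3B 10 (5.93 per 100 kb). The 7 were unevenly placed, since CD79A alone had 4 of them, and without CD79A the density at the genes expressed out of place was 0.542 per 100 kb. Without NCAM1, the longest of them, it was 2.5 per 100 kb. Since the members are few, are not replicates and were chosen with earlier results of these data known, these counts and densities describe the 9 loci only.

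**Figure D1:**
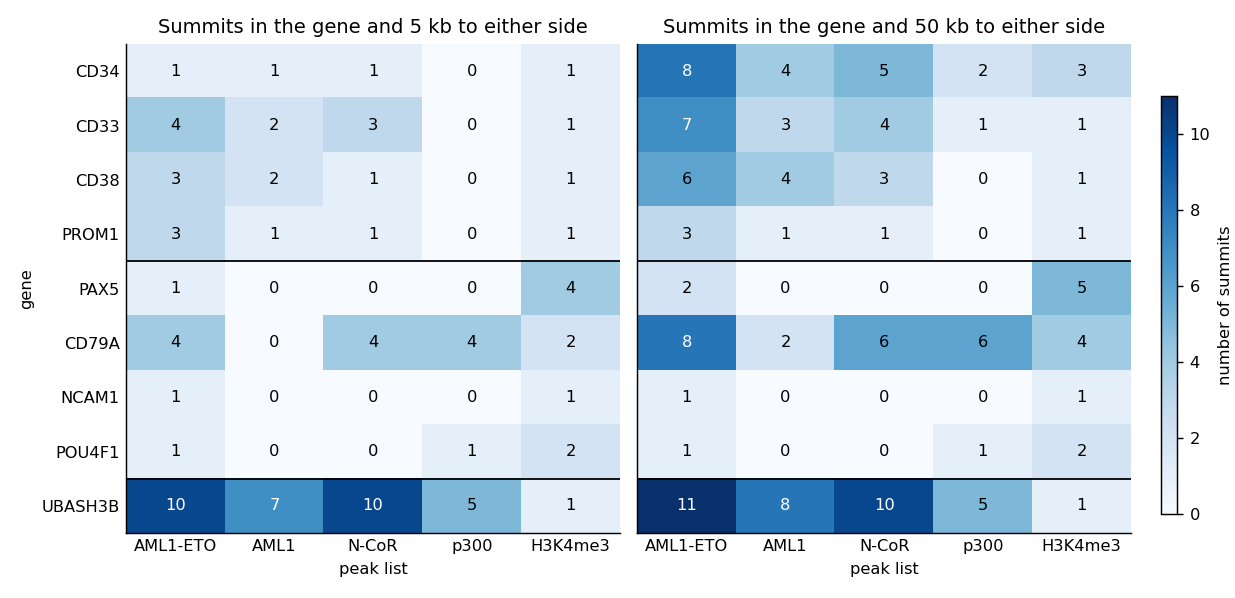
Number of summits of each peak list (columns) at each gene (rows), within 5 kb (left) and 50 kb (right) of the gene, with darker cells for more summits and lines between the 3 classes. The progenitor markers share 1 pattern within 5 kb, with AML1-ETO, AML1, N-CoR and H3K4me3 present and p300 at 0, while UBASH3B has the most AML1-ETO summits, 10 within 5 kb.

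By presence within 5 kb, AML1-ETO and H3K4me3 were alike in the classes and the other 3 lists were not. AML1 summits within 5 kb were found at all 4 progenitor markers and at UBASH3B but at 0 of the 4 genes expressed out of place, where 34.9% of all genes had 1. N-CoR was present at the same 5 genes and at CD79A, against 26.7% of all genes. p300 was found at CD79A, POU4F1 and UBASH3B and at none of the progenitor markers, although 45.6% of all genes had a p300 summit within 5 kb. H3K4me3 was present at all 9, beside 68.1% of all genes.

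The 4 progenitor markers thus had the same presence pattern, with AML1-ETO, AML1, N-CoR and H3K4me3 but without p300, which 520 protein-coding genes (2.58%) had. PAX5 and NCAM1 shared another, with AML1-ETO and H3K4me3 alone, which 716 genes (3.56%) had. CD79A, with every list but AML1, matched 513 genes (2.55%), and POU4F1, with AML1-ETO, p300 and H3K4me3, matched 923 (4.58%). UBASH3B had all 5, as did 2926 genes (14.5%). The patterns are of presence only, and say nothing of whether the proteins met at the same base.

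Long genes more often had an AML1-ETO, AML1, N-CoR or H3K4me3 summit than all genes, while the share with p300 (46.0%) was near that of all genes (45.6%). Among the 3664 protein-coding genes of 100 kb or more, 58.3% had an AML1-ETO summit within 5 kb, 51.5% AML1, 39.7% N-CoR and 75.3% H3K4me3. PROM1, PAX5, NCAM1 and UBASH3B are of this length, and the latter 2 show how far apart genes of that kind can lie. NCAM1, at 317 kb the longest member, had 1 AML1-ETO summit (0.306 per 100 kb), where genes of 200 kb or more had a mean of 1.89. PAX5, at 201 kb, likewise had 1 (0.474 per 100 kb). The median over genes of 100 kb or more was also 1, so both counts are ordinary for long genes although they are below the mean. UBASH3B, at 159 kb, had 10, where genes of 100 to 200 kb had a mean of 1.37 and 4 at the 90th percentile.

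**Figure D2:**
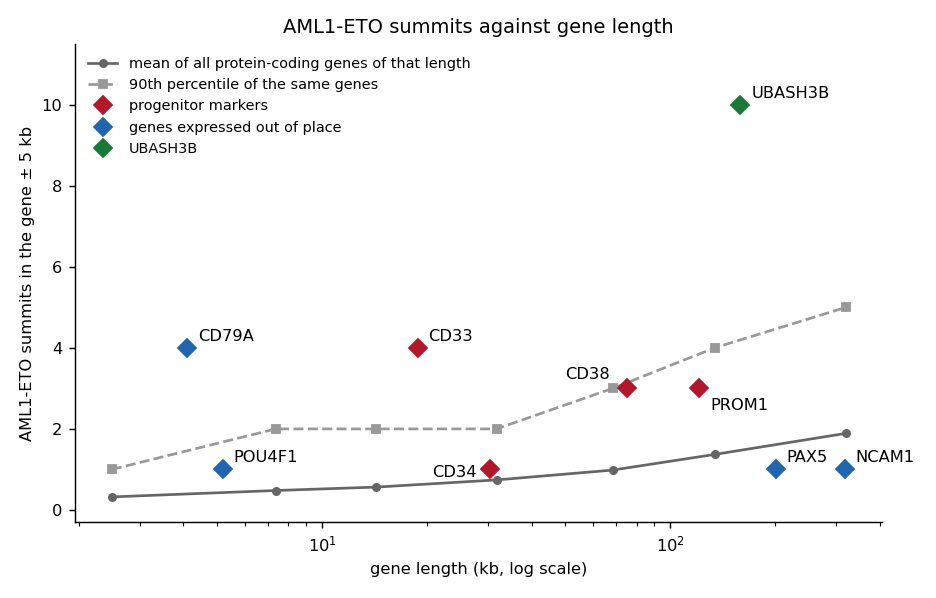
AML1-ETO summits in the gene and 5 kb to either side (vertical axis) against gene length in kb (horizontal axis, log scale), with diamonds for the 9 genes and gray lines for the mean and the 90th percentile of all protein-coding genes in 7 length classes. UBASH3B, CD33 and CD79A lie above the 90th percentile line, PAX5 and NCAM1 lie below the mean, CD38 lies at the 90th percentile of its length class, and CD34, PROM1 and POU4F1 lie between the lines.

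CD33, a sialic acid-binding lectin of myeloid cells and the target of the antibody-drug conjugate gemtuzumab ozogamicin, is 18.8 kb long (chr19:51728320-51747115, plus strand). It had 4 AML1-ETO, 2 AML1, 3 N-CoR, 0 p300 and 1 H3K4me3 summits within 5 kb, or 13.9 AML1-ETO summits per 100 kb. Only 965 protein-coding genes (4.79%) had 4 or more AML1-ETO summits.

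At the start of CD33, AML1-ETO peak 2784 lay 10 bp before the canonical start, in untranslated sequence, with an N-CoR summit 9 bp away but the nearest AML1 summit 1163 bp away. Peak 5158 lay 1165 bp into the gene in an intron, and there AML1 (12 bp) and N-CoR (3 bp) fell with it, over the Runx match in capitals in its window. These 2 summits flank the H3K4me3 summit, which lay 354 bp after the canonical start. The window of peak 2784 held the PU.1 consensus and no Runx match.

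The other 2 summits of CD33 lay at its far end. Peak 15654 was intronic, more than 3 kb from any AML1 or N-CoR summit (3165 and 3145 bp). Peak 2560, with AML1 and N-CoR each 10 bp away, was 2418 bp past the end of CD33 but 70 bp from the start of SIGLECL1, a neighboring gene of the same lectin family, and so cannot be given to CD33 alone. Within 50 kb the count rose to 7, and peak 2596, 13994 bp upstream of the gene, had AML1, N-CoR and p300 at 80, 55 and 1 bp.

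CD34, a sialomucin of hematopoietic stem and progenitor cells, spans 30.4 kb (chr1:208054317-208084747, minus strand). Within 5 kb it had a single AML1-ETO summit, peak 502, with AML1 19 bp and N-CoR 43 bp away and p300 at 26407 bp. This summit was 20633 bp from the canonical start, on the first base of a shorter annotated transcript, and its 79 printed bases hold the ETS consensus AGGAAG on the minus strand but no Runx or PU.1 match. At the canonical start there was an H3K4me3 summit (197 bp) and no AML1-ETO summit nearer than 12692 bp.

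The wider view changed CD34 the most. Within 50 kb there were 8 AML1-ETO, 4 AML1, 5 N-CoR, 2 p300 and 3 H3K4me3 summits, and 6 of the AML1-ETO summits lay downstream, in the span of the non-coding gene MIR29B2CHG. At peak 1555, 18928 bp past the end of CD34, AML1, N-CoR and p300 fell at 21, 12 and 4 bp. At peak 13532, AML1 and p300 were 3 and 7 bp away and N-CoR was 2022 bp away. Upstream, peak 1946 lay 12692 bp before the canonical start with AML1 and N-CoR at 7 and 27 bp.

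CD38, an ectoenzyme that consumes NAD and rises as progenitors commit, spans 75.0 kb (chr4:15779898-15854855, plus strand). It had 3 AML1-ETO, 2 AML1, 1 N-CoR, 0 p300 and 1 H3K4me3 summits within 5 kb, and 1821 genes (9.04%) had as many AML1-ETO summits or more. Peak 889, 782 bp after the canonical start in an intron, had AML1 at 36 bp and N-CoR at 11 bp. A Runx match stands in its window, and the H3K4me3 summit was 388 bp away. Peak 13363 was also intronic, 1270 bp after the start, with no AML1 or N-CoR window touching its own (524 and 499 bp). Peak 3727, 54638 bp into the gene, had AML1 at 52 bp but N-CoR only at 53867 bp, and also held a Runx match. Within 50 kb, peaks 1934 and 6967 added a pair of summits 21830 and 23737 bp upstream of the gene, each with AML1 and N-CoR within 29 bp.

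PROM1, a membrane glycoprotein of stem and progenitor cells, spans 121 kb (chr4:15964699-16086001, minus strand). It had 3 AML1-ETO, 1 AML1, 1 N-CoR, 0 p300 and 1 H3K4me3 summits, and the wider view added none. Peak 8320, in an intron 51961 bp from the canonical start, had AML1 at 33 bp and N-CoR at 18 bp. Peak 6140 had no AML1 or N-CoR summit within 40 kb (40002 and 40053 bp). Peak 13655 lay where PROM1 and FGFBP2 overlap, 206 bp from the start of FGFBP2, so its gene cannot be told apart by position. The H3K4me3 summit of PROM1 was 42 bp from an internal start and 1373 bp from the canonical one.

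Over the 4 progenitor markers, every AML1 summit (6 of 6) and every N-CoR summit (6 of 6) within 5 kb had a window that overlapped an AML1-ETO window, at 10 to 52 bp for AML1 and 3 to 43 bp for N-CoR. Among all AML1 summits 71.5% overlapped AML1-ETO, and among all N-CoR summits 70.3% did. With 6 summits in each list the exact 95% interval starts at 54.1%, which contains both background shares.

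**Figure D3:**
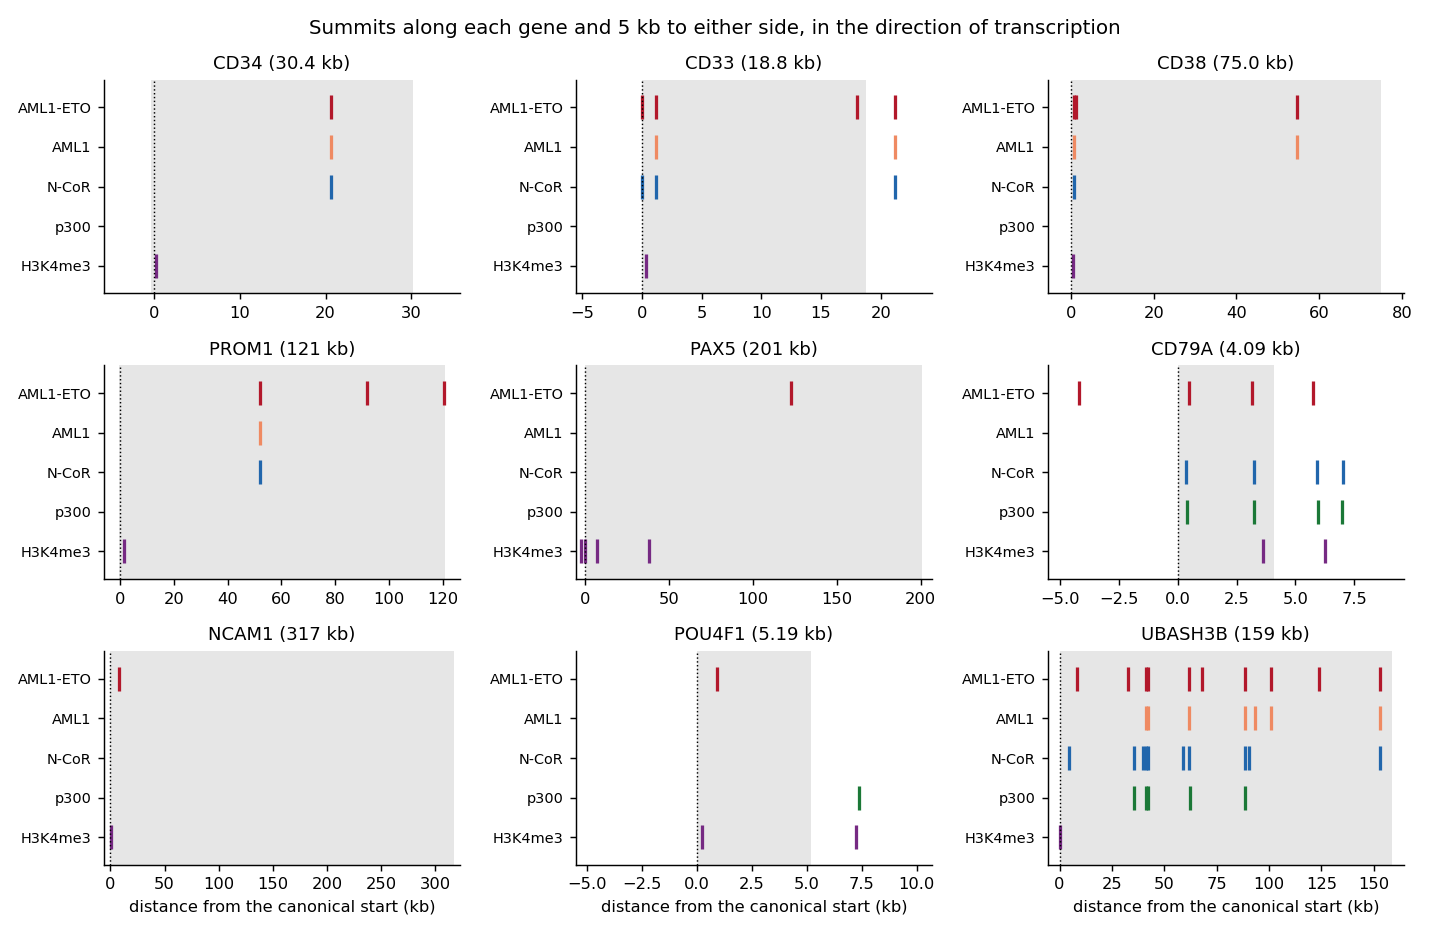
Position of every summit within 5 kb of each gene, as distance in kb from the canonical start (dotted line) in the direction of transcription, with 1 lane for each peak list and the gene body in gray. At CD33, CD38, CD34 and PROM1 the AML1 and N-CoR marks stand under AML1-ETO marks, while at CD79A the N-CoR and p300 marks stand under each other.

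PAX5, the transcription factor that commits cells to the B lineage, spans 201 kb (chr9:36833266-37034265, minus strand). Within 5 kb it had 1 AML1-ETO and 4 H3K4me3 summits and none of AML1, N-CoR or p300. The AML1-ETO summit, peak 15994, was intronic, 122421 bp from the canonical start, with the nearest AML1, N-CoR and p300 summits at 145809, 453077 and 145774 bp. H3K4me3 lay at the canonical start instead, with summits 295 and 2456 bp before it and 6867 and 38052 bp after it. No N-CoR summit came within 50 kb.

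CD79A, the signaling chain of the B-cell receptor known as Ig-alpha, is 4.09 kb long (chr19:42381349-42385439, plus strand) and had 4 AML1-ETO, 0 AML1, 4 N-CoR, 4 p300 and 2 H3K4me3 summits within 5 kb. Its density of 28.4 AML1-ETO summits per 100 kb was the highest of the 9, in a window that is mostly flank and is shared with RPS19 and ARHGEF1, whose ends lie 4356 and 1801 bp from the gene. Peaks 15685 and 9022 were in introns of CD79A, 481 and 3151 bp after the canonical start. Peak 12311 lay 1652 bp past the end of the gene and 149 bp from the start of ARHGEF1. Peak 17254 was 4206 bp upstream.

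In the gene body of CD79A and 5 kb to either side, N-CoR and p300 kept closer to each other than to AML1-ETO. All 4 p300 summits overlapped N-CoR, at 36 to 50 bp, where 33.9% of all p300 summits did (exact 95% interval for 4 of 4, 39.8 to 100%). The 4 summits of each list are from 1 locus and are not independent draws, so the intervals describe counting error only. Of the same 4 p300 summits, 1 overlapped AML1-ETO, where 35.8% of all did, and 1 of the 4 N-CoR summits did (exact 95% interval 0.631 to 80.6%), where 70.3% of all N-CoR summits did. With summits up to 250 bp apart counted, a limit chosen after the data were seen, the N-CoR count came to 3 of 4. That is 75.0% (exact 95% interval 19.4 to 99.4%), beside 73.7% of all N-CoR summits, so the lower share held only for overlapping windows. Of the 4 pairs of N-CoR and p300, 2 lay past the end of CD79A and inside ARHGEF1, with N-CoR 4 and 89 bp and p300 1 and 127 bp from an ARHGEF1 start. The distances from the 4 AML1-ETO summits to N-CoR were 72, 133, 164 and 1310 bp, and only the first of these windows shared a base with N-CoR. AML1 was 1356 bp from the upstream peak and more than 6 kb (6043 bp) from the other 3. A summit with all 4 proteins, peak 1787, lay just outside the window, 5569 bp before the canonical start and within RPS19, with AML1, N-CoR and p300 at 7, 53 and 24 bp.

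NCAM1, an adhesion molecule of neurons and natural killer cells, spans 317 kb (chr11:112831997-113149158, plus strand) and had 1 AML1-ETO and 1 H3K4me3 summit, and no more in the wider view. Peak 4884 was intronic, 8131 bp after the canonical start, over the Runx match in its window. The nearest AML1 summit was 88917 bp away, the nearest N-CoR summit 1113477 bp and the nearest p300 summit 743254 bp. H3K4me3 was 145 bp from a start.

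POU4F1 (BRN3A), a POU-domain factor of sensory neurons, is 5.19 kb long (chr13:79172497-79177687, minus strand). It had 1 AML1-ETO, 1 p300 and 2 H3K4me3 summits, with no AML1 or N-CoR summit in either window. Peak 16182 lay in an intron, 914 bp after the start and 673 bp from an H3K4me3 summit, within the span of the antisense RNA gene OBI1-AS1. The p300 summit was 6462 bp from it, beyond the end of the gene, and 117 bp from the second H3K4me3 summit. The nearest N-CoR summit was 104595 bp from the AML1-ETO summit.

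Over the 4 genes expressed out of place, 0 of 7 AML1-ETO summits overlapped AML1 (exact 95% interval, 0 to 41.0%), 1 overlapped N-CoR (14.3%, 0.361 to 57.9%) and 1 overlapped p300, both at CD79A. At the progenitor markers, 6 of 11 overlapped AML1 (54.5%, 23.4 to 83.3%), 6 of 11 overlapped N-CoR, 5 overlapped both, and 0 overlapped p300 (0 to 28.5%). Of all AML1-ETO summits, 46.2% overlapped AML1, 38.9% N-CoR and 21.8% p300. All of these intervals are wide, cover counting error only and contain the share of all summits, except that for AML1 at the genes expressed out of place, whose upper bound of 41.0% is below 46.2%. The 7 summits come from 4 loci, 4 of them from CD79A, and are not independent draws. With summits up to 250 bp apart counted, a limit chosen after the data were seen, N-CoR and p300 each came to 3 of the 7, all at CD79A (42.9%, 9.90 to 81.6%, beside 40.8 and 26.3% of all AML1-ETO summits). AML1 stayed at 0 of 7, and the progenitor markers stayed at 6, 6 and 0 of 11.

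The place of a peak in its list moved with these overlaps. Among all AML1-ETO peaks, the 9043 with the lower numbers overlapped N-CoR in 58.4% and AML1 in 66.8%, and the 9044 with the higher numbers in 19.3% and 25.6%. For p300 the shares were 28.7% among the lower numbers and 14.9% among the higher. Of the progenitor markers' summits 8 of 11 were among the lower numbers, of those of the genes expressed out of place 2 of 7, and of those of UBASH3B 6 of 10. What set the order of the list is not given in the sources used here, and its part in the difference between the classes was not tested.

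**Figure D4:**
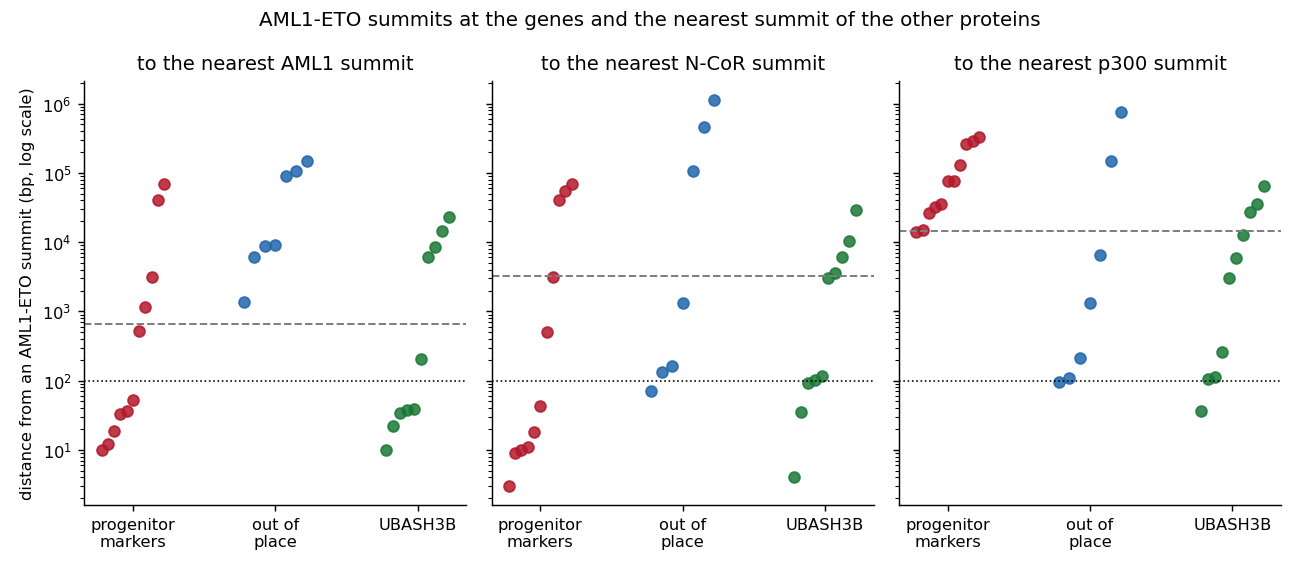
Distance in bp (log scale) from each AML1-ETO summit within 5 kb of the genes to the nearest AML1, N-CoR and p300 summit, with 1 point per AML1-ETO summit, sorted within each class. The dotted line is the 100 bp under which windows overlap and the dashed line the median over all AML1-ETO summits (662 bp to AML1, 3230 bp to N-CoR, 14400 bp to p300). Points under the dotted line are frequent for AML1 and N-CoR at the progenitor markers (6 of 11 each) and absent there for p300.

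UBASH3B, a tyrosine phosphatase with ubiquitin-binding and SH3 domains that tempers receptor signaling, spans 159 kb (chr11:122526430-122685181, plus strand). It had 10 AML1-ETO, 7 AML1, 10 N-CoR, 5 p300 and 1 H3K4me3 summits within 5 kb, and 68 protein-coding genes (0.338%) had 10 or more AML1-ETO summits. All 10 were intronic, from 8265 to 152965 bp after the canonical start. The H3K4me3 summit was at the start (354 bp), more than 7 kb from the nearest AML1-ETO summit (7908 bp).

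At some of the AML1-ETO summits of UBASH3B, but not at most, AML1, N-CoR and p300 all had a summit nearby. At peak 3203, 88414 bp after the start, AML1, N-CoR and p300 lay 22, 35 and 37 bp away, the only AML1-ETO summit of the gene that overlapped all 3. Peaks 4226 and 3721, at 41077 and 42089 bp, had AML1 at 39 and 34 bp, N-CoR at 93 and 115 bp and p300 at 113 and 106 bp, so that p300 stood beside both windows and N-CoR beside the second. At peak 376, 61808 bp after the start, the 3 lay at 208, 101 and 261 bp, so that none overlapped the window of AML1-ETO, and that window holds a Runx match on the minus strand.

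The other 6 summits of UBASH3B lacked a summit of at least 1 of the proteins within 3 kb. Peak 1904, near the end of the gene, had AML1 at 10 bp and N-CoR at 4 bp and p300 at 64514 bp. Peak 14371 had AML1 at 38 bp but N-CoR at 10305 bp. Peaks 8194, 12510, 17018 and 10050 had no AML1, N-CoR or p300 summit within 3 kb (the nearest, of N-CoR to peak 12510, was 3021 bp away), and peak 10050 lay 17 bp before an internal start.

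Taken by protein, 5 of the 10 AML1-ETO summits of UBASH3B overlapped AML1, 3 N-CoR and 1 p300, where 46.2, 38.9 and 21.8% of all AML1-ETO summits did. Conversely, 7 of the 10 N-CoR summits and 4 of the 5 p300 summits had no AML1-ETO window on them. The 3 of 10 N-CoR summits that did (exact 95% interval 6.67 to 65.2%) compare with 70.3% of all N-CoR summits, and the 1 of 5 p300 summits (0.505 to 71.6%) with 35.8% of all p300 summits. These summits are from 1 locus and are not independent draws, and with summits up to 250 bp apart counted, N-CoR came to 5 of 10 (18.7 to 81.3%, beside 73.7% of all N-CoR summits) and p300 to 3 of 5 (beside 43.2%). Of the 5 p300 summits, 4 overlapped N-CoR. Over all members, 8 of 10 p300 summits overlapped N-CoR (80.0%, exact 95% interval 44.4 to 97.5%, beside 33.9% of all p300 summits). These 8 come from CD79A and UBASH3B alone. Of the same 10 p300 summits, 2 overlapped AML1-ETO, beside 35.8% of all p300 summits. With summits up to 250 bp apart counted, this came to 6 of 10 (60.0%, exact 95% interval 26.2 to 87.8%), beside 43.2% of all p300 summits.

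By the counts of the 5 lists within 5 kb, the genes most like UBASH3B were ST3GAL1, CHST11 and ITGB2, with distances of 0.521, 0.543 and 0.563 on the log2(count + 1) scale over 5 counts. ITGB2, the beta chain of the leukocyte integrins, had 9 AML1-ETO, 6 AML1, 7 N-CoR, 6 p300 and 1 H3K4me3 summits in 46.0 kb. CHST11, a chondroitin sulfotransferase, had 14, 8, 11, 6 and 1 in the same order in 307 kb. ST3GAL1, a sialyltransferase, had 11, 7, 8, 7 and 1 in 117 kb.

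H3K4me3 lay within 1 kb of an annotated start at 8 of the 9 members, where 62.4% of protein-coding genes had it. The distances were 197 bp at CD34, 303 at CD33, 394 at CD38, 42 at PROM1, 295 at PAX5, 145 at NCAM1, 241 at POU4F1 and 354 at UBASH3B. CD79A was the exception, with its nearest H3K4me3 summit 3618 bp from a CD79A start, in a coding exon, and another 282 bp from the start of ARHGEF1. Both classes thus carried the mark, the B-lineage PAX5 and the neural NCAM1 and POU4F1 included. Within 1 kb of an H3K4me3 summit lay 7 of the members' 28 AML1-ETO summits (25.0%, exact 95% interval 10.7 to 44.9%), beside 27.4% of all AML1-ETO summits.

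Within 50 kb, 66.5% of protein-coding genes had an AML1-ETO summit, 59.8% AML1, 48.7% N-CoR, 64.5% p300 and 81.0% H3K4me3. At this distance AML1 was present at 6 of the 9 members and N-CoR at 6, and neither came to PAX5, NCAM1 or POU4F1. p300 was present at 5, now including CD34 and CD33 with 2 and 1 summits, all 3 of which overlapped AML1-ETO. AML1-ETO counts grew from 11 to 24 at the progenitor markers, mostly at CD34, from 7 to 12 at the genes expressed out of place, mostly at CD79A, and from 10 to 11 at UBASH3B.

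Consensus sequences were counted in the same windows. The Runx consensus stood in 9 of the members' 28 AML1-ETO windows (32.1%, exact 95% interval 15.9 to 52.4%), beside 31.3% of all AML1-ETO windows and 10.8% of all promoters of 300 bases. By class these were 4 of 11 at the progenitor markers, 1 of 7 at the genes expressed out of place and 4 of 10 at UBASH3B. GAGGAA was in 8 of 28 (28.6%, beside 26.0% of all AML1-ETO windows and 27.2% of promoters). The ETS consensus AGGAAG, which shares 5 letters with GAGGAA where a G follows, was in 9 of 28 (37.5% of all windows, 32.6% of promoters), and the AP-1 consensus TGANTCA was in 2 of 28, both at UBASH3B (5.19% of all windows, 5.43% of promoters). Each was searched on both strands, and the share of all windows lay inside the exact 95% interval of the members for each. The windows are 100 bp and the promoters 300, and a longer sequence has more room for a match. The shares were not adjusted for length, so those of windows and promoters cannot be compared directly.

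Of the members' AML1-ETO summits, which are by rule in the gene or within 5 kb of it, an intron held 23 of the 28 (82.1%, exact 95% interval 63.1 to 93.9%), beside 54.8% of all pairs of an AML1-ETO summit and a protein-coding gene within 5 kb. Gene length was not adjusted for, and summits of the same gene are not independent draws, so the interval covers counting error only. By class these were 8 of 11 at the progenitor markers, 5 of 7 at the genes expressed out of place and 10 of 10 at UBASH3B. Of the other 5, those of CD34 and the first of CD33 were in untranslated exon sequence and 3 lay outside the gene. No summit of AML1, N-CoR or p300 overlapped 14 of the 28 (50.0%, exact 95% interval 30.6 to 69.4%, beside 38.3% of all AML1-ETO summits), namely 4 of 11, 5 of 7 and 5 of 10 in the 3 classes.

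Other genes of the same kinds were counted in the same way. Of 13 myeloid and progenitor surface genes, 9 had an AML1-ETO summit within 5 kb (69.2%), with 3.08 summits per 100 kb, 7 had N-CoR, 6 had p300, 4 had AML1 and 10 had H3K4me3. In percent these were 53.8, 46.2, 30.8 and 76.9, in that order, beside 26.7, 45.6, 34.9 and 68.1% of all protein-coding genes. KIT, the receptor for stem cell factor, had 6 AML1-ETO summits, and CD244, a receptor of the SLAM family, had 4. FLT3, CSF3R, SPN, FUT4 and ITGAM tied for the next place with 2 each. IL3RA and CD99, in the pseudoautosomal region of X, had no summit of any list within 50 kb. Both are counted among the 13, and whether reads could be placed in that region was not tested.

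Of 12 B-lineage genes, 4 had an AML1-ETO summit (33.3%, 0.542 per 100 kb), 3 had AML1, 1 had N-CoR, 0 had p300 and 3 had H3K4me3. The shares with AML1 (25.0%), N-CoR (8.33%), p300 (0%) and H3K4me3 (25.0%) were each below those of all genes. CD72 had 2 AML1-ETO summits, and VPREB1, POU2AF1 and BLK had 1 each. CD79B, the partner of CD79A, had an H3K4me3 summit 112 bp from a start and no summit of the 4 proteins within 5 kb. It is named outside the ranking, after its values were seen.

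Of 12 neural genes, 4 had an AML1-ETO summit (33.3%, 0.274 per 100 kb), with 1 each, among them NCAM2, L1CAM and TUBB3. In this list 4 genes had AML1, 4 N-CoR, 3 p300 and 4 H3K4me3. AML1 (33.3%) was near the 34.9% of all genes, N-CoR (33.3%) was above 26.7%, and p300 (25.0%) and H3K4me3 (33.3%) were below 45.6 and 68.1%. The surface list was thus above the 41.4% of all genes for AML1-ETO and the other lists were below it, as counts of 9 of 13, 4 of 12 and 4 of 12.

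**Figure D5:**
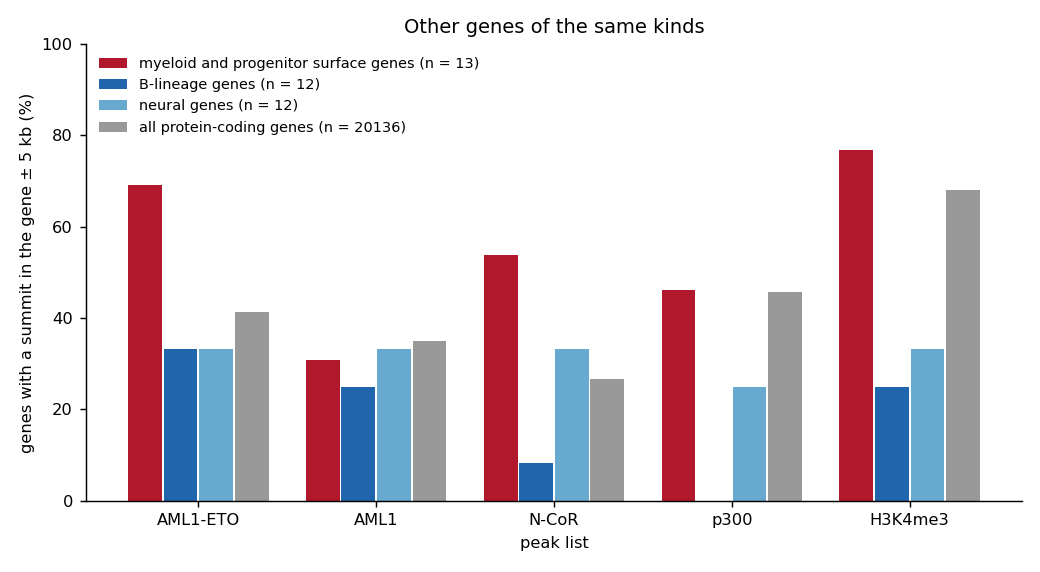
Percent of genes with at least 1 summit in the gene or within 5 kb (vertical axis) for each peak list (horizontal axis), in 13 myeloid and progenitor surface genes, 12 B-lineage genes, 12 neural genes and all 20136 protein-coding genes. AML1-ETO bars are 69.2, 33.3, 33.3 and 41.4%, and the B-lineage bar for p300 is at 0.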

How the data were processed

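Peak positions from ChIP-seq of Kasumi-1 cells were used as deposited. Per the labels and the study's methods, the authors aligned reads to hg19 (Bowtie 0.12.8), merged both replicates per antibody and ran MACS2 (2.0.10.20131216) at a stringent p-value threshold. The deposited values are positions, 100-bp windows around a summit with a numbered name, with no score, signal or p-value. In 3 of the 5 lists the peak names carry the name of another antibody, and the lists were taken by their sample labels. The positions in them differ, and at most 120 summit bases are shared by any 2 lists. H3K27me3 and input were not analysed here.

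Summits were counted in genes of GENCODE release 44 lifted to GRCh37 (20136 protein-coding genes, after leaving out 25 duplicated symbols). Windows that shared 1 bp or more were called overlapping. Shares have exact Clopper-Pearson 95% intervals. The 9 members were all named, with up to 2 windows shown for each by the rule and 4 further windows (of PROM1, PAX5, NCAM1 and UBASH3B) chosen after their values were seen, together with the 3 genes nearest to the member with most AML1-ETO summits, and the 3 leading genes of each other list. Some genes of these lists were counted but are not reported here by name. Members and lists were chosen with earlier results of these data known. Counting was tested on simulated data. Genome sequence was read with pysam 0.24.0, intervals came from SciPy 1.17.1, and counts and figures were made with numpy 2.4.6 and matplotlib 3.10.9 under Python 3.11.15.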

Additional observations from a re-analysis of the deposited data

How the results depend on the processing

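The 19 summary values were recomputed under 54 alternatives, 17 of them added after the data had been seen, and 47 stayed within 1.5 times the count or density or within the interval of the share. The intervals of the shares are wide, so staying inside them says little about stability. At the genes expressed out of place, for example, the share that overlapped N-CoR went from 14.3 to 42.9% with summits up to 250 bp apart counted, and still stayed inside. With the window at 50 kb, the AML1-ETO summits went from 11 to 24 at the progenitor markers and from 7 to 12 at the genes expressed out of place. Without CD79A, the genes expressed out of place had 3 summits and 0.542 per 100 kb, and without NCAM1, their longest gene, 2.5 per 100 kb. In the lower-numbered part of the AML1-ETO list, 62.5% of the members' summits overlapped N-CoR, up from 35.7% of all 28, beside 58.4% of all AML1-ETO summits in that part. With summits within 500 bp counted, 25.0% overlapped p300, up from 7.14%, beside 29.4% of all AML1-ETO summits at that limit. A stricter peak threshold was not run, since the lists give no score. No paired analysis was possible because the replicates were pooled before peaks were called. The reads behind each summit are not in the lists and library depth differed between antibodies, so a missing summit means only that no peak was called.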
